A study of Arabidopsis thaliana with 6 samples.

Results

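GH3.3, WES1 and AT1G14130 encode enzymes that take the plant hormone auxin out of its active form. AT1G14130 is known as DAO1 and is called so here. The 3 genes were picked for this role and because their values differed between arrays, with earlier results of these data in view. They stand among 13350 genes to which the platform annotation gave a probe set of their own, called measured here. Other genes may still be on the array, since 8730 probe sets were named for no gene and 503 for several. Each of the 3 has 1 probe set of its own, 245076_at for GH3.3 (AT2G23170), 253908_at for WES1 (AT4G27260, also called GH3.5) and 262653_at for DAO1. The genes were chosen by the deposited levels and their differences between NJ15 and mock seedlings, so these values are given as a description and were not tested.

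Auxin, mainly indole-3-acetic acid, moves to the lower side of a root or shoot that has been turned, and the uneven amount makes the organ bend. Plants lower the pool of active auxin by joining it to amino acids, which enzymes of the GH3 family do, and by oxidising it or its conjugates, which the DAO oxygenases do. GH3.3 and WES1 are auxin amido synthetases, and WES1 also acts on salicylic acid. Several GH3 genes are themselves switched on by auxin, which makes them part of a feedback loop.

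The study treated wild-type Col-0 seedlings of Arabidopsis thaliana that had grown upright for 4 days on MS plates, a standard plant culture medium. They were sprayed with mock solution or with 10 µM NJ15, which the submitters describe as the ethyl ester of an acetic acid on a tetrazole ring with a dichlorophenyl group, and the plates were turned by 90 degrees. Total RNA was taken after 8 h and measured on Affymetrix arrays, 3 arrays of mock and 3 of NJ15 seedlings. No unturned and no unsprayed seedlings were analysed here, 1 dose and 1 time were measured, and how many seedlings entered a sample is not given in the sources used here.

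Values are log2 levels as deposited, 1 per probe set and array, where a difference of 1 is a doubling. Levels of different probe sets are not set against each other, because probe sets respond differently to the same amount of RNA. Array medians lay between 7.24 and 7.27. Of the 22746 tested probe sets, 16602 held 6 values within 0.01 of each other and are called flat here. No change can be read from a flat probe set, and the other 6144 are called varying. How the deposited values became so nearly equal is not given in the sources used here, and whether the same processing altered the differences of varying probe sets was not tested. The 3 genes described were all varying.

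Seedlings hold shoot and root, and markers of both were looked at. The 4 green tissue markers measured of 8 listed had a mean log2 level of 10.75, 11.44 and 12.06 in mock replicates 1, 2 and 3, and of 11.00, 11.62 and 11.59 in NJ15 replicates 1, 2 and 3. The mock group averaged 11.42 ± 0.66 (SD, n = 3) and the NJ15 group 11.40 ± 0.35 (SD, n = 3), and mock replicates 1 and 3 were the lowest and the highest of all arrays. Of 10 root markers, 3 were measured. PYK10, a root beta-glucosidase and the only one of them that varied, lay between 13.05 and 13.32 on all arrays. EXPA7 and EXPA18, expansins of root hair cells, were flat at 6.42 and 6.51. In whole seedlings, fewer cells of a type and less RNA per cell cannot be told apart.

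DAO1 oxidises auxin or its amino acid conjugates to inactive products. Its log2 level was 7.45, 7.57 and 7.36 in mock replicates 1, 2 and 3, and 8.00, 7.86 and 7.73 in NJ15 replicates 1, 2 and 3. Every NJ15 array was higher than every mock array, and 0.16 lay between the lowest NJ15 and the highest mock value. The mock mean was 7.46 ± 0.11 (SD, n = 3) and the NJ15 mean 7.87 ± 0.14 (SD, n = 3), a difference of 0.40 with a standard error of 0.10, or 1.32-fold. DAO1 was the 1 of the 3 genes whose groups did not overlap. Among all varying probe sets, NJ15 lay above mock without overlap in 6.51% and below it without overlap in 5.96%. Since the contrast chose the genes, nothing is read from that count.

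GH3.3 is a classical early auxin-induced gene. Its log2 level was 8.38, 8.44 and 8.77 in mock replicates 1, 2 and 3, and 8.96, 9.09 and 8.61 in NJ15 replicates 1, 2 and 3. NJ15 replicates 1 and 2 were the highest arrays, while NJ15 replicate 3 lay below mock replicate 3, so the groups overlapped. The mock mean was 8.53 ± 0.21 (SD, n = 3) and the NJ15 mean 8.89 ± 0.25 (SD, n = 3). The difference was 0.35 with a standard error of 0.19, or 1.28-fold.

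WES1 had its mean on the other side. Its log2 level was 9.52, 9.32 and 9.22 in mock replicates 1, 2 and 3, and 8.83, 9.25 and 9.31 in NJ15 replicates 1, 2 and 3. NJ15 replicate 1 lay below all other arrays, and NJ15 replicates 2 and 3 lay within the range of the mock arrays. The mean of the mock arrays was 9.36 ± 0.15 (SD, n = 3) and that of the NJ15 arrays 9.13 ± 0.26 (SD, n = 3), a difference of -0.23 with a standard error of 0.17. Without NJ15 replicate 1 the difference was -0.08, and without mock replicate 1 it was -0.14.

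**Figure D1:**
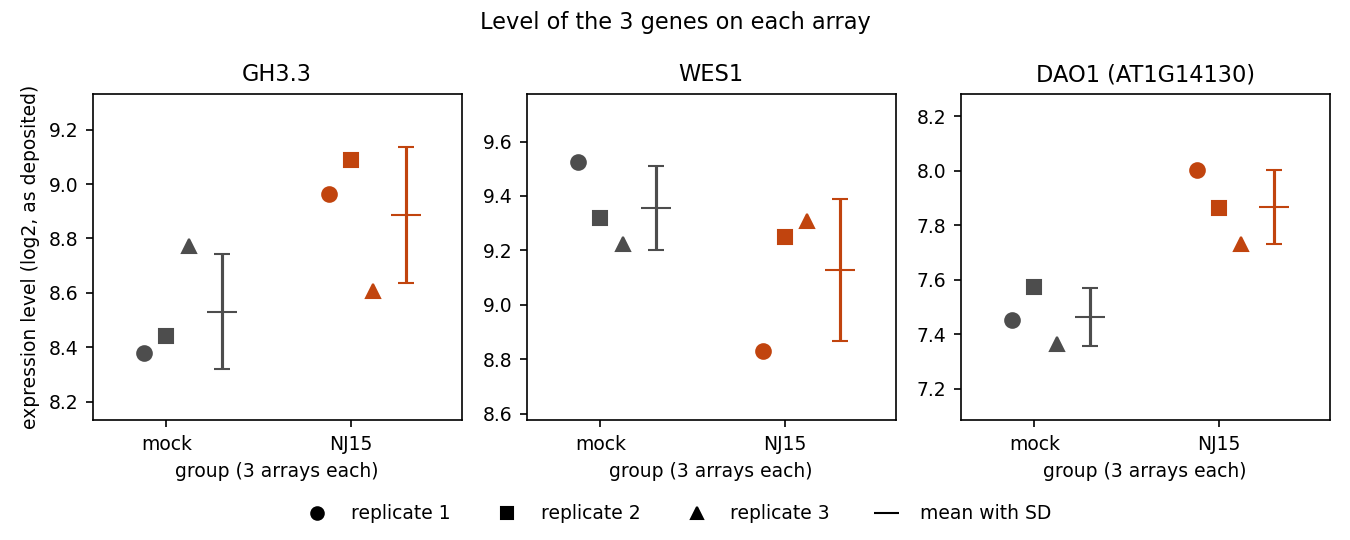
The log2 level of GH3.3, WES1 and DAO1 (vertical axis, each panel spanning the same number of log2 units) is plotted for the 3 mock and the 3 NJ15 arrays, with a different symbol for each replicate number and the mean with SD at the right of each group. The DAO1 groups are apart, GH3.3 overlaps through mock replicate 3 and NJ15 replicate 3, and WES1 has 1 low array, NJ15 replicate 1 at 8.83.

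The 3 genes differed from each other in which arrays were high. NJ15 replicate 1 was the highest array for DAO1, the second highest for GH3.3 and the lowest for WES1. Mock replicate 1 was the lowest array for GH3.3 and the highest for WES1, so the arrays at the extremes of WES1 lay in the opposite part of the range of GH3.3. Mock replicate 3, where green tissue markers were highest, was the lowest array for DAO1 and the highest mock array for GH3.3. The part of the green tissue share in these values was not tested.

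**Figure D2:**
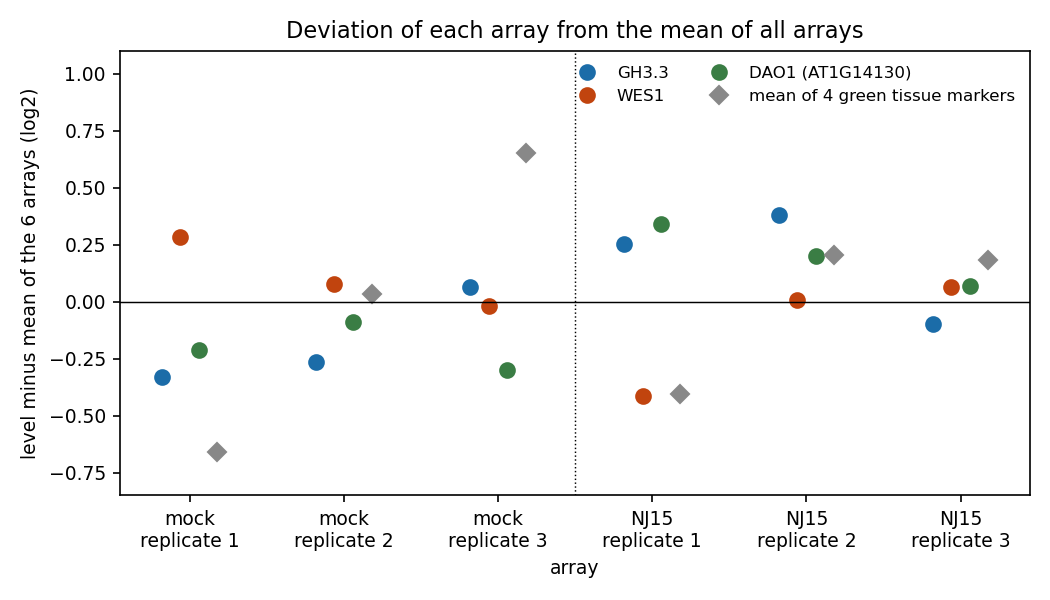
For each array (horizontal axis), points give the log2 level of each gene minus its own mean over the 6 arrays, beside the mean of 4 green tissue markers treated alike. DAO1 lies below 0 on every mock array and above 0 on every NJ15 array, and the marker mean ranges more widely than the genes, with mock replicates 1 and 3 at its ends.

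Many probe sets differed between the groups by as much. Of the varying probe sets, 11.1% had a difference between the groups at least as large in either direction as that of DAO1, 13.2% as that of GH3.3 and 22.5% as that of WES1. The highest and lowest arrays were 0.64 apart for DAO1, 0.71 for GH3.3 and 0.69 for WES1, and between 34.0% and 37.7% of the varying probe sets spanned at least as much. DAO1 spanned slightly less than the other two, and its 3 highest arrays were the 3 NJ15 arrays. Within a group DAO1 ranged over 0.21 in mock and 0.27 in NJ15 seedlings, against 0.39 and 0.48 for GH3.3 and 0.30 and 0.48 for WES1.

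Leaving out any 1 array kept the sign of each difference, which for DAO1 could not be otherwise, because its groups did not overlap. The genes were chosen by these differences, so the ranges are a description only. DAO1 stayed between 0.34 and 0.47 and GH3.3 between 0.25 and 0.49, and WES1 ran from -0.32 to -0.08. Quantile normalization gave 0.39 for DAO1, 0.33 for GH3.3 and -0.25 for WES1.

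**Figure D3:**
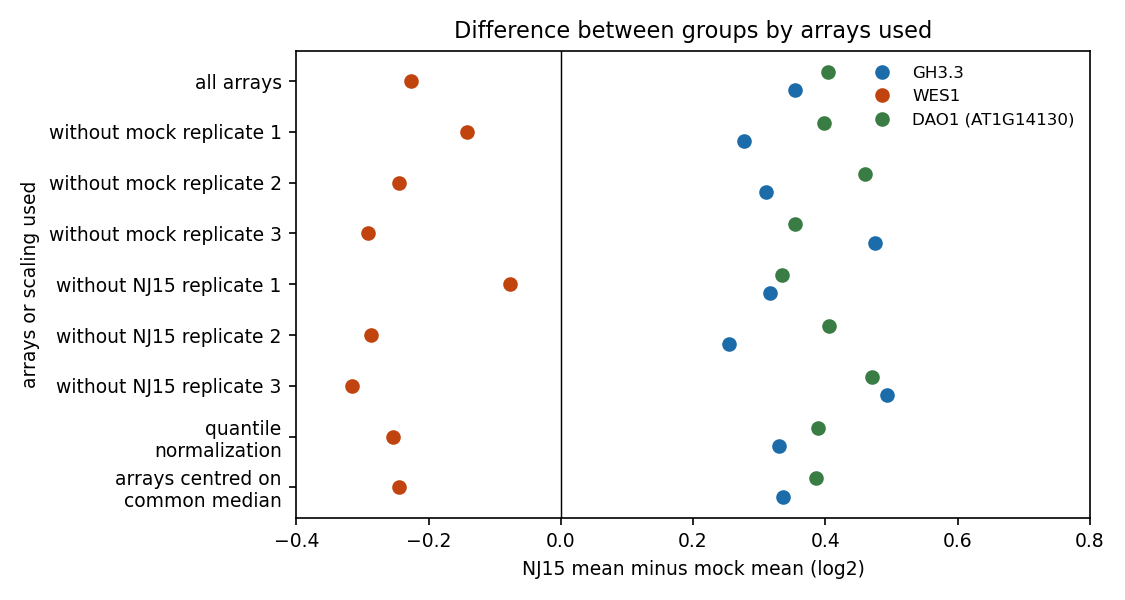
The difference between the NJ15 and mock means in log2 units (horizontal axis) is plotted for the 3 genes with all arrays, without each array in turn, and after each of 2 other scalings. GH3.3 and DAO1 stay above 0 and WES1 below 0, and the WES1 point nearest to 0 is the one without NJ15 replicate 1, at -0.08.

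The rest of the pathway was taken from 6 lists by function, with 79 genes beside the 3 described: GH3 enzymes, auxin oxidases, other enzymes that modify auxin, enzymes that release it from conjugates, auxin synthesis and auxin-induced genes. Of these, 24 were measured, with a probe set of their own in the annotation, and 12 varied. The lists were chosen with earlier results of these data known. None of the 24, of which 12 were flat, passed the limma test over all probe sets (adjusted p threshold 0.05). There 44 of all tested probe sets (0.193%) passed, and 40 of these were flat, so little can be read from that share. Over varying probe sets only, 4 of 6144 passed and none of the 12 varying genes of the lists did. At an unadjusted p under 0.05 limma held 1 of the 24, YUC4, a flat probe set with a difference of -1.33e-09, against 5.51% of all tested probe sets. The 12 varying genes had a median difference of 0.03, with 6 above and 6 below 0, and all varying probe sets had a median of -0.01.

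Among the other GH3 genes, 8 of 16 were measured and 3 varied. They were listed as a family, and whether each of their enzymes acts on auxin was not checked. GH3.17, which joins auxin to glutamate, had log2 levels of 9.10, 8.88 and 7.91 in mock replicates 1, 2 and 3 and of 8.68, 8.38 and 8.54 in NJ15 replicates 1, 2 and 3. All NJ15 arrays lay inside the mock range, and the difference of -0.10 (limma, adjusted p = 1.0) ran from -0.46 without mock replicate 3 to 0.14 without mock replicate 1. GH3.9 had a difference of -0.05 (limma, adjusted p = 1.0), which was 0.08 without mock replicate 3 and -0.15 without mock replicate 1, and AT1G48660, listed as a GH3 gene, had one of -0.03 (limma, adjusted p = 0.967) that was 0.0017 without mock replicate 3 and -0.05 without mock replicate 2. GH3.1 and 4 further listed GH3 genes were flat.

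AT1G14120, listed with DAO1 as an auxin oxidase, is the locus next to it on chromosome 1 in the gene table. Its log2 level was 8.46, 7.89 and 7.55 in mock replicates 1, 2 and 3 and 8.65, 8.23 and 8.44 in NJ15 replicates 1, 2 and 3. NJ15 replicates 2 and 3 lay below mock replicate 1, so the groups overlapped where those of DAO1 did not. The difference of 0.47 with a standard error of 0.29 did not pass (limma, adjusted p = 0.923). It was 0.72 without mock replicate 1 and 0.26 without mock replicate 3. The mock SD of AT1G14120 was 0.46, against 0.11 for DAO1.

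Other enzymes modify auxin with a sugar or a methyl group. Of 6 listed, 4 were measured and 2 varied. IAGLU was listed here as a glucosyltransferase of auxin. Its log2 level was 9.23, 8.73 and 9.26 in mock replicates 1, 2 and 3. In NJ15 replicates 1, 2 and 3 it was 10.13, 9.76 and 9.29. The groups did not overlap, but the lowest NJ15 array was only 0.03 above the highest mock array. The difference of 0.65 with a standard error of 0.30 did not pass (limma, adjusted p = 0.83). UGT74D1, a glucosyltransferase of auxin, had a difference of 0.42 with overlapping groups (limma, adjusted p = 0.841). The UGT74D1 difference was 0.25 without mock replicate 1 and 0.59 without mock replicate 3. UGT84B1 and UGT84B2 were flat.

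None of the 8 listed genes for release of auxin from its conjugates was measured, because the annotation named no probe set for any of them alone. For synthesis, YUC2, YUC4, YUC6 and YUC11, monooxygenases of the last step, were the 4 measured genes of 22, and all were flat. Among auxin-induced genes 7 of 26 were measured. IAA30 was flat, and the other 6 had a median difference of 0.02. Their groups overlapped, as did those of most varying probe sets (all but the 6.51% above and 5.96% below). IAA20 and IAA29, repressors of auxin signalling, had differences of 0.22 and 0.25, and HAT2, a homeodomain transcription factor, had one of 0.08. LBD16 and LBD29, transcription factors of lateral root formation, had -0.45 and -0.05, and WAG2, a kinase that acts on auxin carriers, had -0.33. Without mock replicate 3 IAA20 turned to -0.09, HAT2 to -0.10, LBD16 to -0.71 and WAG2 to -0.62. Without mock replicate 1 IAA20 had 0.37, HAT2 0.24, LBD29 -0.07 and WAG2 -0.12. Without mock replicate 2 IAA20 had 0.39, LBD29 0.05 and LBD16 -0.30. IAA29 had -0.12 without NJ15 replicate 3 and 0.70 without NJ15 replicate 1. Without NJ15 replicate 1 LBD29 had 0.02, without NJ15 replicate 2 HAT2 had 0.17 and WAG2 -0.17, and without NJ15 replicate 3 HAT2 had -0.02 and LBD29 -0.13.

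**Figure D4:**
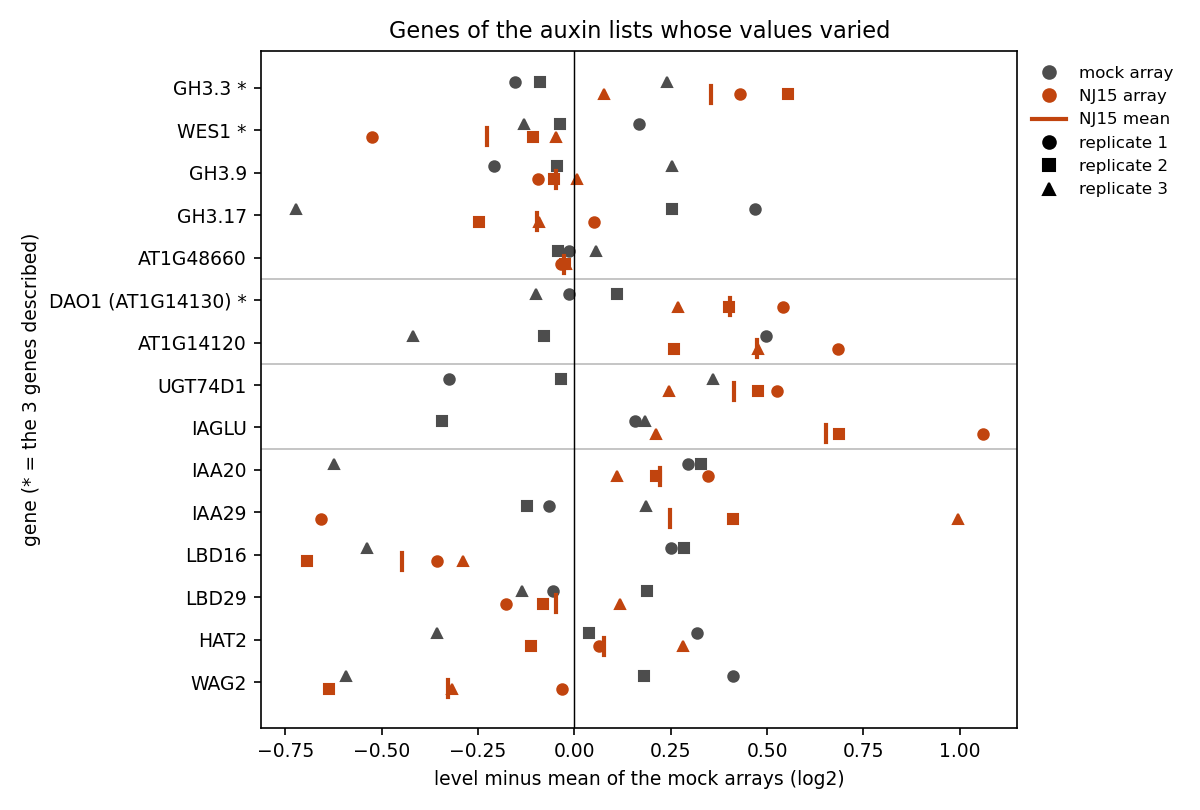
For the 3 genes described (starred) and the 12 other varying genes of the auxin lists, points give the log2 level on each array minus the mean of the mock arrays, with mock arrays above and NJ15 arrays below each line and a vertical bar at the NJ15 mean. Only DAO1 and IAGLU among these 15 genes have all NJ15 points to the right of all mock points, IAGLU by 0.03, as have 6.51% of all varying probe sets.

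The genes with values most like each of the 3 were found by Pearson's r over the 6 arrays among 1346 genes whose arrays were at least 0.5 apart. These coefficients describe the same 6 arrays, were the highest of many and carry no test. For DAO1 they were AT2G37870, AT1G72800, SUFE2, UGT73B4 and AT5G51980, with r between 0.968 and 0.994. SUFE2 takes part in the assembly of iron-sulfur clusters, and UGT73B4 is a glycosyltransferase of stress and defence compounds. AT2G37870, with the highest r, had log2 levels of 7.89, 8.07 and 7.69 in mock replicates 1, 2 and 3 and of 9.41, 8.98 and 8.57 in NJ15 replicates 1, 2 and 3. The differences of the 5 genes lay between 0.33 for AT5G51980 and 1.71 for AT1G72800, against 0.40 for DAO1.

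For GH3.3 the genes were AT5G58980, AT5G07870, AT4G33540, AT5G45350 and TIL, with r between 0.953 and 0.981. TIL, a lipocalin induced by temperature changes, had a difference of 0.97 between the groups, and the other 4 had differences between 0.33 and 0.43. TIL stood at 9.78 in mock replicate 3 and at 10.00 in NJ15 replicate 3, so its groups were apart, and those of GH3.3 were not. Of all varying probe sets, 6.51% had NJ15 above mock without overlap. For WES1 the likeness was lower. AT1G33790 had r = 0.918, and AT3G23880, AT3G24450, ATG8E and AT5G18600 had r between 0.774 and 0.812. All 5, picked for following WES1, had differences below 0, from -0.53 for AT3G23880 to -0.20 for ATG8E, against -0.23 for WES1. AT1G33790, AT3G23880 and AT3G24450 were lower on every NJ15 array than on any mock array, as were 5.96% of all varying probe sets, and WES1 was not. AT3G23880 was barely apart, at 8.45 in mock replicate 3 and 8.43 in NJ15 replicate 3. ATG8E is a protein of the autophagosome membrane.

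**Figure D5:**
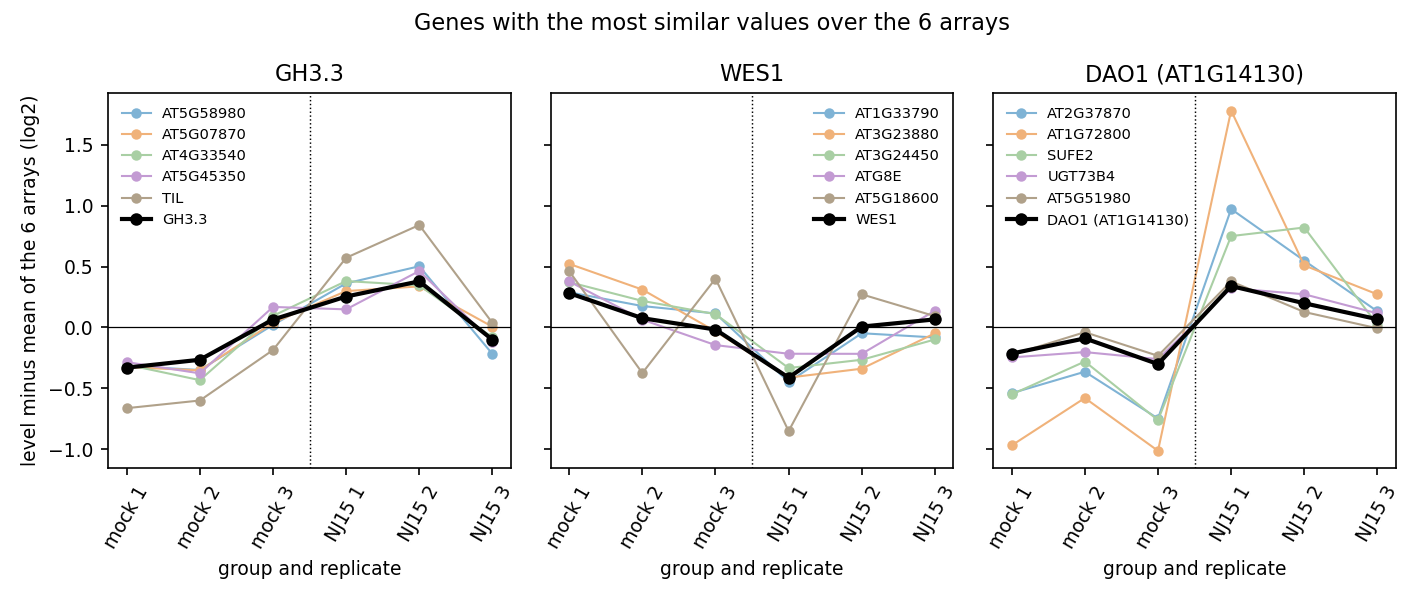
Each panel plots 1 of the 3 genes (black) and the 5 genes most like it as log2 level minus the gene's own mean over the 6 arrays, with thin lines joining the values of a gene and mock arrays left of the dotted line. The genes like DAO1, picked for following it, are higher on all NJ15 arrays, as are 6.51% of all varying probe sets. Some move further than DAO1, and those like WES1 follow it less closely, with r from 0.774 to 0.918.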

How the data were processed

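Total RNA of 6 seedling samples, 3 mock and 3 NJ15, was hybridised to Affymetrix arrays after labelling with a 3 prime in vitro transcription kit, per the labels' protocols. The deposited values are log2 levels, 1 per probe set and array; the log base is read from their range of 5.30 to 14.04. The authors worked in R 2.7.2, per the submitters' processing notes. How the authors corrected background, scaled and summarized the arrays is not given in the sources used here, and signal over background is unknown. The number of arrays limits the precision. The labels call the samples biological replicates.

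Values were used as deposited. Of 22810 probe sets, 64 control probe sets were left out. To keep rounding noise of the computer out of flat probe sets, values were shifted by those of 1 array before fitting. They were also rounded to the decimals of the deposited values. Differences in the last deposited decimals stayed, so flat probe sets could still pass. NJ15 was compared with mock by limma 3.58.1 (lmFit and eBayes, two-sided) in R 4.3.3, with Benjamini-Hochberg adjustment over all 22746 probe sets. How well this fit, with flat and varying probe sets together, finds differences as small as those of the genes named here was not tested. Errors of single differences are standard errors from the 2 group SDs. Figures were drawn with matplotlib 3.10.9.

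Genes were named by the platform annotation and matched to loci in a TAIR10.1 gene table, which served for names and neighbours only. Of the probe sets, 13513 had 1 gene, of which 13508 matched a locus, 503 had several and 8730 were not listed and stayed unnamed. For each gene the probe set with the highest mean was used.

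Named were the 3 genes, every varying gene of the auxin lists, and for each of the 3 the 5 genes of highest r. Genes, lists and tests were chosen with earlier results of these data known. The alternatives were quantile normalization, centring of arrays, a filter on low means, varying probe sets only, a replicate block, leaving out each array, a robust prior with an intensity trend, and a threshold of 0.1.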

Additional observations from a re-analysis of the deposited data

How the results depend on the processing

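The differences of GH3.3, WES1 and DAO1 kept their sign under all 9 alternatives run for each. Quantile normalization and centring moved each by less than the SD between replicates. Leaving out 1 of 3 arrays cannot move a difference beyond that SD, and the replicate block cannot change it. For DAO1, whose groups did not overlap, leaving out 1 array could not turn the sign either. Nothing is read from these fixed outcomes. Leaving out 1 array gave 0.25 to 0.49 for GH3.3, -0.32 to -0.08 for WES1 and 0.34 to 0.47 for DAO1. Averaging several probe sets of a gene was not run, because each gene had 1 in the annotation. The limma count over all probe sets depended on the setting. It was 44 (19 higher, 25 lower), of which 40 were flat, and 49 at a threshold of 0.1. It was 0 after quantile normalization and 0 with the intensity trend and robust prior, where 3347 and 886 had an unadjusted p under 0.05, 1 (with 993) without the 25 percent of probe sets with the lowest means, and 4 over varying probe sets only. Centring gave 17165 (236 higher, 16929 lower), 16591 of them flat. Leaving out 1 array gave 4 to 15. Of the 24 other genes of the auxin lists, 12 passed after centring, all flat and lower, where the median of all probe sets shifted by -0.018. Under each of the other alternatives run, including each left-out array, 0 passed, with 0 to 3 at an unadjusted p under 0.05. Only 13 of the 24 were tested without the lowest means and only 12 over varying probe sets, with or without the block. With the replicate block limma called 0, with 1208 at an unadjusted p under 0.05, and over varying probe sets, an alternative chosen after seeing the data, 0, with 449. The differences of the 3 genes with the block were 0.35, -0.23 and 0.40, as without it. Same-numbered arrays shared deviations with r = 0.586, -0.305 and 0.192 for replicates 1, 2 and 3, so the numbers were not taken as pairs. Arrays of different number had r from -0.523 (mock replicate 3 with NJ15 replicate 1) to 0.417 (mock replicate 2 with NJ15 replicate 3). Whether mock and NJ15 arrays shared batches under another numbering was not tested.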
